A study of Rattus norvegicus with 24 samples.

Results

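The 9 genes followed here in the rat hypothalamus belong to myelin and to the oligodendrocytes that make it: Mbp, Mog, Mag, Mobp, Ermn, Tspan2, Cnp, Cldn11 and Mal. They were taken by symbol from the platform's probe table, which gave 18 probe sets for these 9 genes out of 31042 probe sets, covering 14217 genes, that were tested. Hypothalamic blocks came from 18 male Wistar rats, 6 to a group and 1 array to a rat. All were 7 weeks old at the start and had 1 week to settle in. Controls were not restrained, stress rats were held in wire-mesh restraint for 2 h, and linalool rats were restrained for the same 2 h in a 40 L box in which 20 µL of (R,S)-linalool had evaporated. No group breathed linalool without restraint, so the odour was compared under restraint only. The sample details used here list a box for the linalool rats only, so box and odour cannot be told apart. A block is bulk tissue, in which fewer oligodendrocytes and less RNA per oligodendrocyte cannot be told apart.

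Oligodendrocytes wrap axons in sheets of membrane whose inner faces are pressed together into compact myelin, leaving cytoplasm only at the edges and along channels. Myelin basic protein holds the inner faces together, claudin-11 seals the sheets with tight junctions, and glycoproteins on the outermost and innermost layers face the surroundings and the axon. Myelinated tracts such as the optic chiasm and the fornix border or cross the hypothalamus.

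The values are log2 signals that the authors normalized in separate sets of 12 columns. Set 1 holds controls and stress rats, and set 2 holds the same stress rats again with the linalool rats, so every comparison stayed inside a set. How far values could move differed greatly between probe sets: 83.5% of all probe sets in set 1 and 83.7% in set 2 had a within-group (residual) SD under 0.01 log2 units, and these are called compressed here. A log2 difference can be strongly understated there, so differences are also given in within-group SDs. Column medians lay between 8.13 and 8.19 over the 24 columns. All 10 hypothalamic marker genes of a list were measured. In controls Pmch averaged 11.89, Avp 11.81 and Oxt 10.94, while Pomc averaged 7.43 and Sim1 6.82, below the column medians.

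In controls 17 of 18 member probe sets had means above 10 on this scale, and the lowest, Ermn 1395447_at, had 9.93. The same 6 stress arrays gave nearly the same picture in both sets for most members. Their SD differed by less than a factor of 2 between the sets in 15 of 18 probe sets. It was 186 times as large in set 1 as in set 2 for the highest Cldn11 probe set (0.0243 against 0.00013), 9.98 times for the highest Cnp probe set and 9.92 times for Mal. Those 3, with the highest Mbp probe set, were compressed in set 2, and in set 1 that Mbp probe set alone was. Among all probe sets 13.4% differed over 10-fold in this way.

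Restraint alone gave no member probe set past the threshold. With limma and Benjamini-Hochberg adjustment over all probe sets, 0 of 18 passed an adjusted p of 0.05, against 0.554% of all probe sets (0.341% higher and 0.213% lower), and the unmoderated test of the same model also called 0. Among the 17 member probe sets that were not compressed, 0 passed, against 1.84% of all such probe sets. One, Tspan2 1368105_at, had an unadjusted p under 0.05, as did 16% of all probe sets. Means were higher in stress for 11 probe sets and lower for 7. The differences ran from -0.16 to 0.17 log2 units, and the 95% confidence intervals of all 18 lay within -0.449 to 0.378. The median difference was 0.224 within-group SDs over the members and 0.120 over all probe sets. No member's groups were fully separate, which 1.78% of all probe sets were.

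Among the proteins of compact myelin, Mal, a lipid-raft protein that sorts myelin cargo, had controls at 11.88, 12.47 and 12.91 (lowest, median and highest) and stress rats at 12.41, 12.50 and 12.62. All 6 stress rats lay inside the range of the controls, and the difference was 0.05 (SE 0.148, adjusted p = 0.889 with limma). Mobp, a small basic protein abundant in compact myelin, was measured by 3 probe sets that differed by 0.05, 0.08 and 0.14. The Mbp probe sets 1387341_a_at and 1383479_at differed by 0.04 and -0.06, and the highest, 1368810_a_at, by 0.64 within-group SDs. None of these 6 was past the threshold.

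The glycoproteins of the sheath's surfaces did not pass either. Mog, found on the outermost layer, had controls at 11.30, 11.64 and 12.02 and stress rats at 11.57, 11.67 and 11.84, a difference of 0.05 (SE 0.110, limma adjusted p = 0.851). Mag, the adhesion molecule that faces the axon, had controls at 11.78, 12.03 and 12.37 and stress rats at 12.05, 12.11 and 12.20, a difference of 0.06 (SE 0.0827, limma adjusted p = 0.747). For both genes every stress rat lay between the lowest and the highest control.

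Of the genes for proteins at the cytoplasmic side, Ermn encodes ermin, which binds actin in late-stage oligodendrocytes, and Cnp encodes a cyclic nucleotide phosphodiesterase of the cytoplasmic channels. The lead probe set of Ermn, meaning the one with the highest mean over all columns, had controls at 11.15, 11.44 and 11.83 and stress rats at 11.42, 11.46 and 11.53. Its stress rats filled only a narrow band in the middle of the controls (difference 0.01, SE 0.102, limma adjusted p = 0.965). The lead probe set of Cnp differed by -0.000689 and the other by -0.02.

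Tspan2, a tetraspanin of the oligodendrocyte membrane, and Cldn11, the tight junction claudin of myelin, held the extremes. Tspan2 1368105_at had controls at 11.62, 11.85 and 12.00 and stress rats at 11.64, 11.69 and 11.72. Controls 1 to 5 lay above every stress rat and control 6 below them all, and the difference of -0.16 (SE 0.0531) had a limma adjusted p of 0.193. Cldn11 1369609_at had controls at 10.07, 10.35 and 10.59 and stress rats at 10.41, 10.50 and 10.60, a difference of 0.17 (SE 0.0840, limma adjusted p = 0.340).

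The controls of set 1 were more spread out than the stress rats. The control SD was larger than the stress SD in 17 of 18 member probe sets, compared with 64.2% of all probe sets, with a median ratio of 2.48 against 1.19 over all. The ratio was 6.05 for the lead probe set of Ermn, and the exception was Mbp 1383479_at at 0.776. Control 2 was the highest of all 12 arrays in 16 of 18 probe sets, and control 6 was the lowest in 13 of 18. Without control 2 the control SD was larger in 16 of 18 (median ratio 2.00), without control 6 in 17 (2.35) and without both in 15 (1.86, beside 1.13 over all probe sets). These counts rest on probe sets measured on the same arrays and are a description, with no test.

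**Figure D1:**
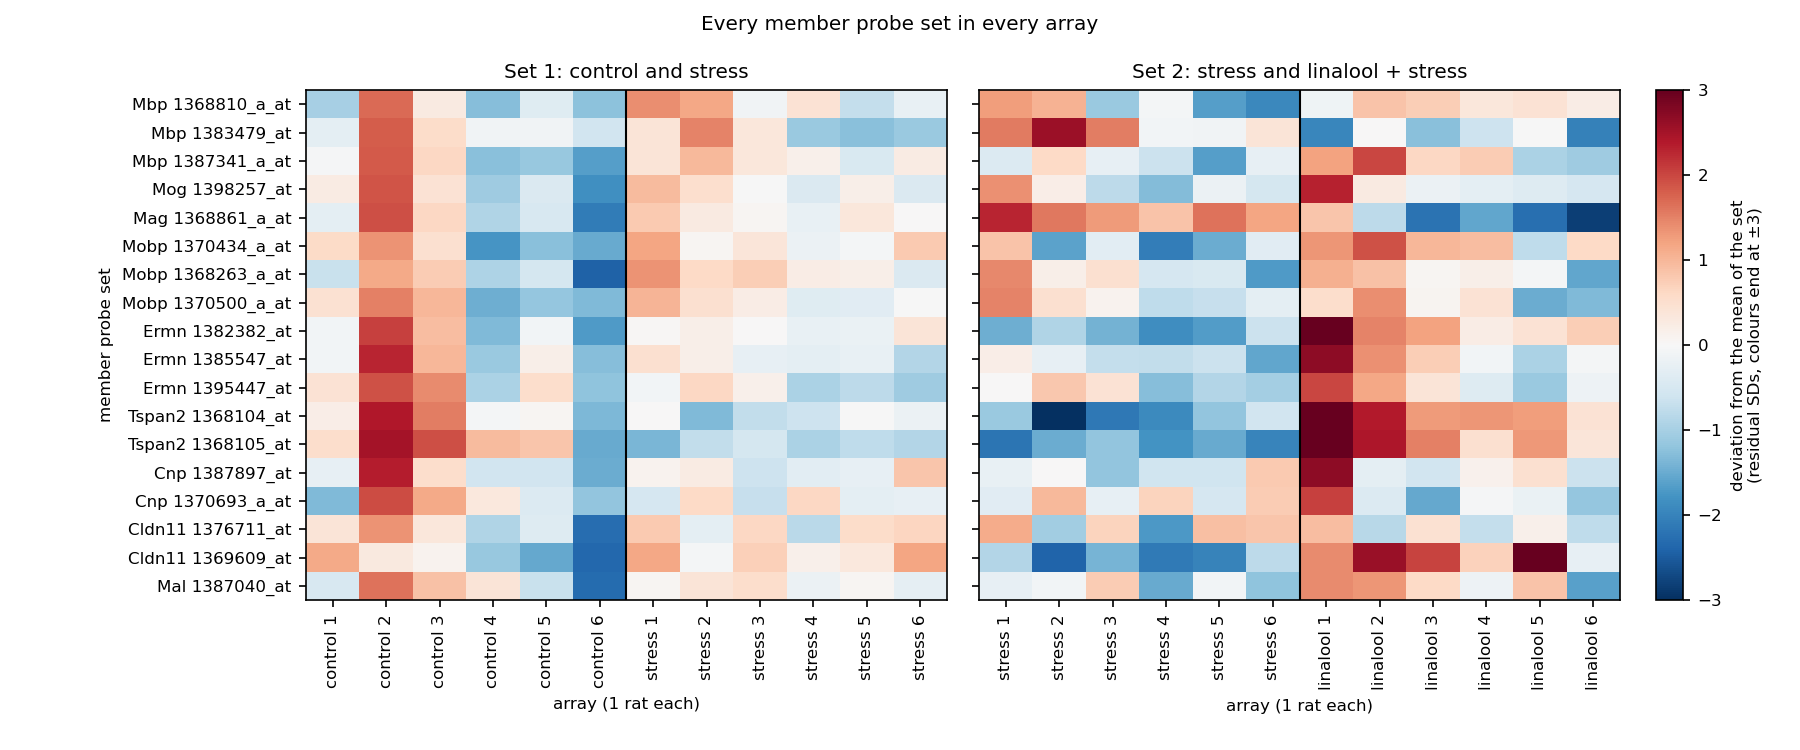
Deviation of each of the 18 member probe sets (rows) from the mean of its set, in within-group SDs, for each array (columns), with controls and stress rats on the left and stress and linalool rats on the right. Control 2 is high and control 6 low in nearly every row, the stress rats of set 1 are pale, and linalool rat 1 is the highest array in 9 of 18 rows of set 2.

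The mean deviation of the 9 lead probe sets per array showed the same. It was -0.0759, 1.85, 0.666, -0.830, -0.461 and -1.76 within-group SDs in controls 1 to 6, and between -0.281 and 0.590 in the stress rats. The mean of 10 marker genes of the meninges, the membranes around the brain, ran across the same controls in another order: -1.06, -0.604, 0.554, 0.784, 2.29 and 2.15 in controls 1 to 6, and -0.970 to -0.408 in stress rats. The meningeal markers' median difference was -1.44 within-group SDs under restraint, beside 0.110 over the leads of all genes. With limma 8 of the 10 had an unadjusted p under 0.05 and none passed the adjusted threshold. Under linalool none passed and 0 had an unadjusted p under 0.05. Of other cell types, 11 neuronal genes averaged -0.504 to -0.260 in controls and 0.0961 to 0.540 in stress rats, with no overlap, and 9 endothelial genes averaged -0.780 to 1.59 and -1.48 to -0.184. Of these, 0 neuronal genes passed and 1 endothelial gene fell. The part of these values in the members' differences was not tested.

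**Figure D2:**
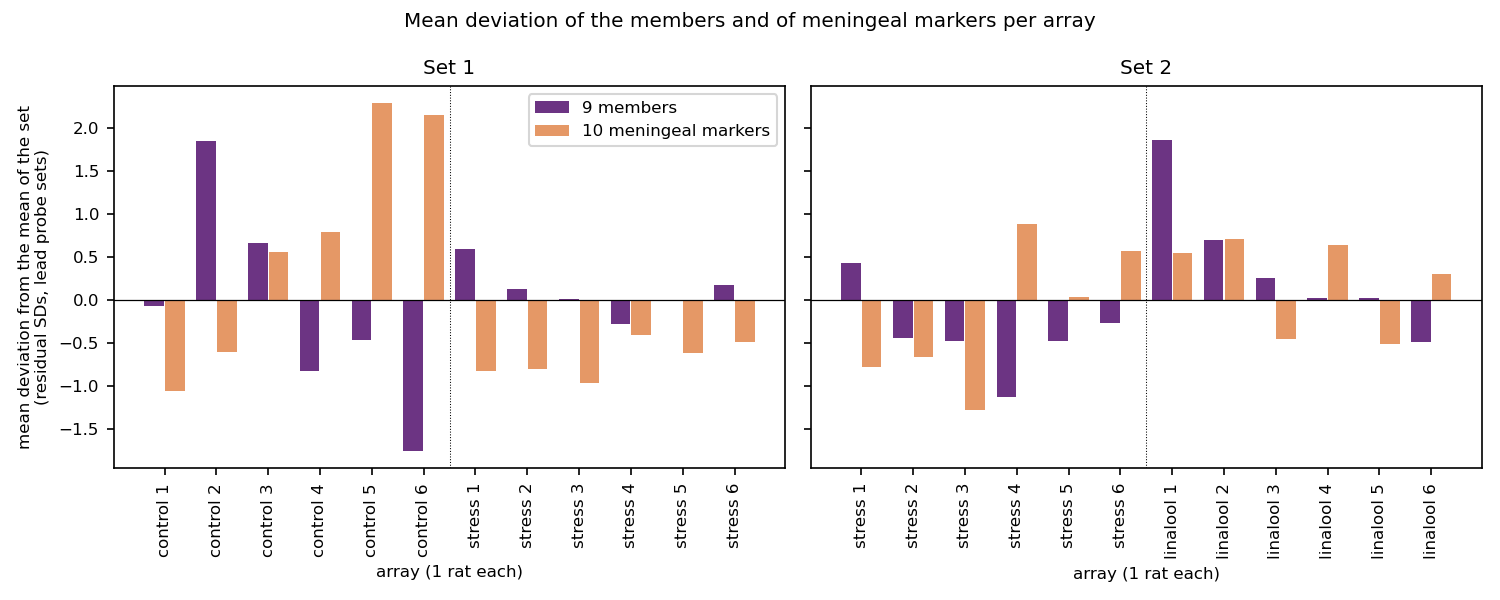
Mean deviation per array, in within-group SDs, of the 9 member lead probe sets (purple) and of 10 meningeal markers (orange), in set 1 on the left and set 2 on the right. Control 2 has the highest member value (1.85) and control 6 the lowest (-1.76), while controls 5 and 6 have the highest meningeal values (2.29 and 2.15).

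Under linalool the members went both ways. Of the 18 probe sets, 6 passed the threshold with limma, from 5 genes, compared with 25% of all probe sets. Tspan2 (both of its probe sets), Ermn and Cldn11 rose, by 1.10- to 1.32-fold, and Mag and 1 of 3 Mbp probe sets fell. These were 4 higher against 14.2% of all probe sets, and 2 lower against 10.8%. The share of 33.3% called is near the background, and 7 had an unadjusted p under 0.05, against 37.7% of all probe sets. All 6 were among the 14 member probe sets that were not compressed, and of all probe sets not compressed 49.7% passed. By lead probe sets 3 of 9 members passed, against 28.3% of all genes. The median difference was 0.719 within-group SDs over the members and -0.0136 over all probe sets. By lead probe sets it was 0.800 over the 9 members and 0.223 over all genes. Groups were fully separate in 5 of 18, compared with 11.9% of all probe sets. None of these 5 was compressed, and the share among all probe sets not compressed was not worked out.

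Tspan2 rose in both of its probe sets. The lead, 1368104_at, had stress rats at 11.74, 11.84 and 11.89 (lowest, median and highest) and linalool rats at 11.95, 12.00 and 12.13. All 6 linalool rats were above every stress rat, and the difference was 0.20 (SE 0.0333), or 1.15-fold, with a limma adjusted p of 0.00221. The second Tspan2 probe set, 1368105_at, had stress rats packed between 11.71 and 11.75 around a median of 11.73. Its linalool rats lay at 11.82, 11.86 and 11.97, again all above, and rose by 0.14 (SE 0.0241, 1.10-fold, limma adjusted p = 0.00218).

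Ermn 1382382_at, the lead probe set, had stress rats at 11.39, 11.45 and 11.55 and linalool rats at 11.66, 11.76 and 12.14. Every linalool rat was above every stress rat, and linalool rat 1 was the highest. The difference was 0.35 (SE 0.0738, 1.27-fold, limma adjusted p = 0.00723). The other 2 Ermn probe sets overlapped between the groups and did not pass, at 0.20 (limma adjusted p = 0.138) for 1385547_at and 0.10 (0.448) for 1395447_at.

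Cldn11 1369609_at had the largest difference in log2 units among the 18. Stress rats lay at 10.34, 10.43 and 10.54 and linalool rats at 10.61, 10.86 and 11.03, with no overlap. The rise was 0.40 (SE 0.0717, 1.32-fold, limma adjusted p = 0.00295). The lead Cldn11 probe set, 1376711_at, was compressed in this set: its 12 values spanned 0.000309 log2 units, and its difference was -0.253 within-group SDs (limma adjusted p = 0.786).

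Mag 1368861_a_at, its single probe set, went the other way. Stress rats lay at 12.15, 12.20 and 12.27 and linalool rats at 11.85, 11.92 and 12.15. All 6 linalool rats were below every stress rat, the highest of them, linalool rat 1, only just. The fall was -0.24 (SE 0.0472), which leaves 0.844 of the stress level, with a limma adjusted p of 0.00443.

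Mbp 1383479_at had stress rats at 11.62, 11.79 and 12.04 and linalool rats at 11.32, 11.49 and 11.64. The groups overlapped at 11.62 to 11.64, with 4 of 6 linalool rats below the lowest stress rat. It fell by 0.30 (SE 0.0885), to 0.810 of the stress level, with a limma adjusted p of 0.0296. This call was lost with quantile normalization (0.0552), with the replicate number as a block (0.0679) and without stress rat 1 (0.0612) or 3 (0.0627) or linalool rat 1 (0.0615), 3 (0.0539) or 6 (0.0593). The other 5 calls stayed past the threshold in every alternative that tested them. For those 5 an exact two-sided permutation test of the group means gave 0.00216, the smallest p that 6 against 6 arrays can give. Fully separate groups, as in these 5 and in 11.9% of all probe sets, always give that p, so it adds nothing to the separation. For Mbp 1383479_at the same test gave 0.013, and these p-values were not adjusted.

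**Figure D3:**
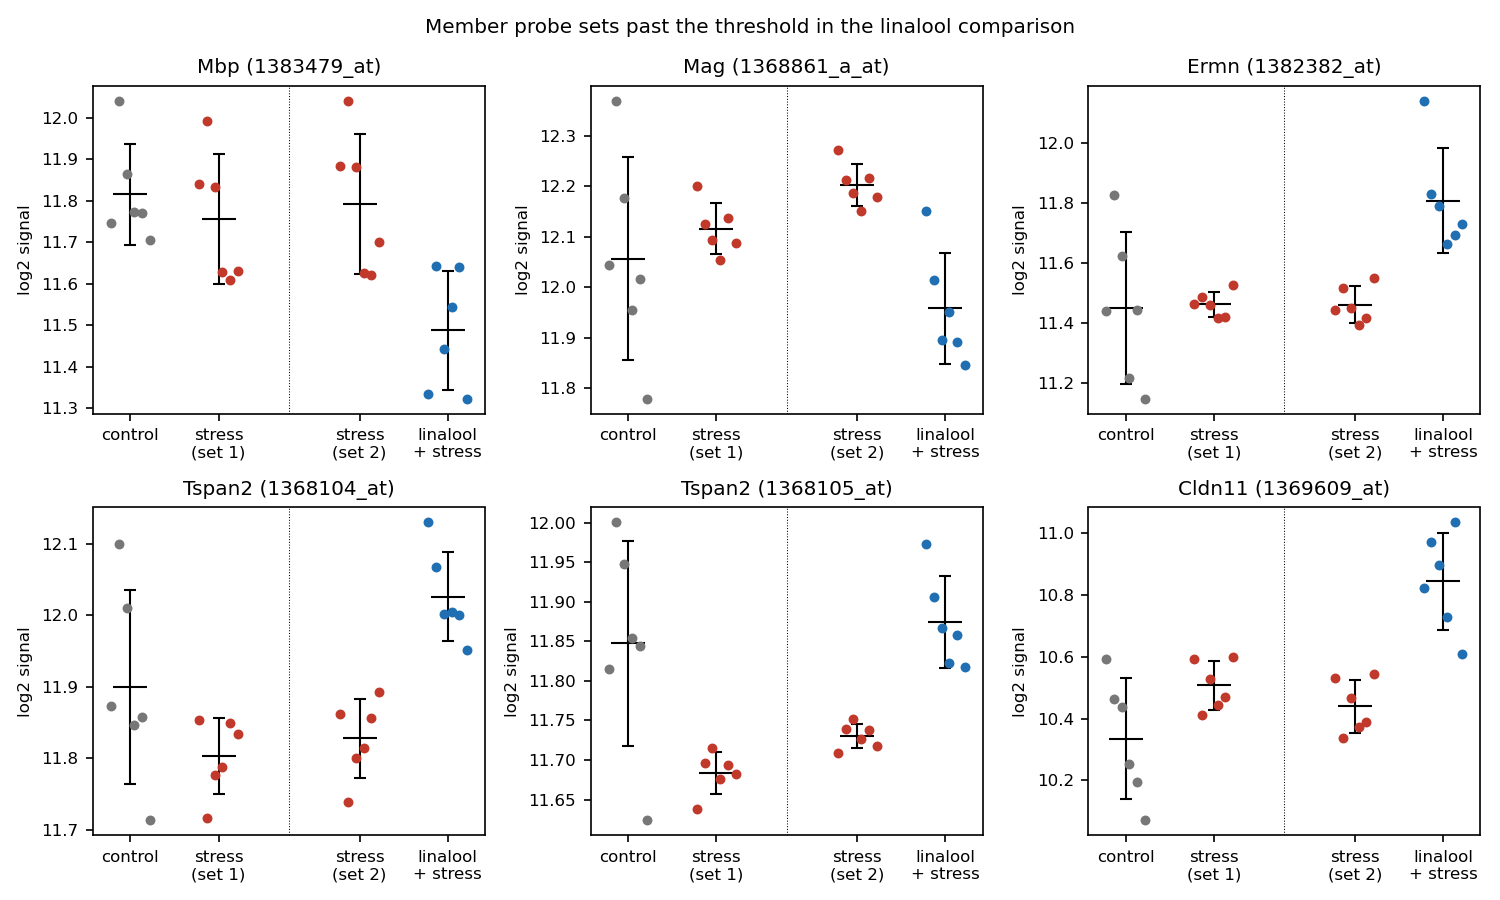
Log2 signal per rat (points) with the group mean and SD (bars) for the 6 member probe sets past the threshold under linalool, with controls and stress rats of set 1 left of the dotted line and stress and linalool rats of set 2 right of it. Tspan2, Ermn and Cldn11 have all linalool rats above all stress rats, Mag has all below, and Mbp overlaps.

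The other probe sets stayed short of the threshold. Mobp 1370434_a_at had stress rats at 14.22, 14.28 and 14.36 and linalool rats at 14.28, 14.37 and 14.41, and 4 of 6 linalool rats lay above every stress rat. Its difference of 0.08 (SE 0.0273) had a limma adjusted p of 0.0556. It passed in 6 of 19 alternatives. The other Mobp probe sets differed by 0.02 and -0.01 (limma adjusted p = 0.842 and 0.899), and their groups overlapped.

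Mog had stress rats at 11.66, 11.73 and 11.86 and linalool rats at 11.72, 11.74 and 11.93, a difference of 0.03 (SE 0.0410, limma adjusted p = 0.636, 95% confidence interval -0.0609 to 0.121). Linalool rat 1 lay above the stress range and the others inside it. Mbp 1387341_a_at had stress rats at 14.26, 14.35 and 14.41 and linalool rats at 14.30, 14.41 and 14.50, a difference of 0.06 (SE 0.0371, limma adjusted p = 0.299).

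The remaining lead probe sets were compressed, so their differences are in within-group SDs: 0.816 for Mbp 1368810_a_at (limma adjusted p = 0.424), 0.599 for Cnp (0.479) and 0.800 for Mal (0.334). All 12 values of the Mbp probe set lay within 8.4e-05 log2 units. Cnp 1370693_a_at, which was not compressed, differed by -0.04 (limma adjusted p = 0.622).

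**Figure D4:**
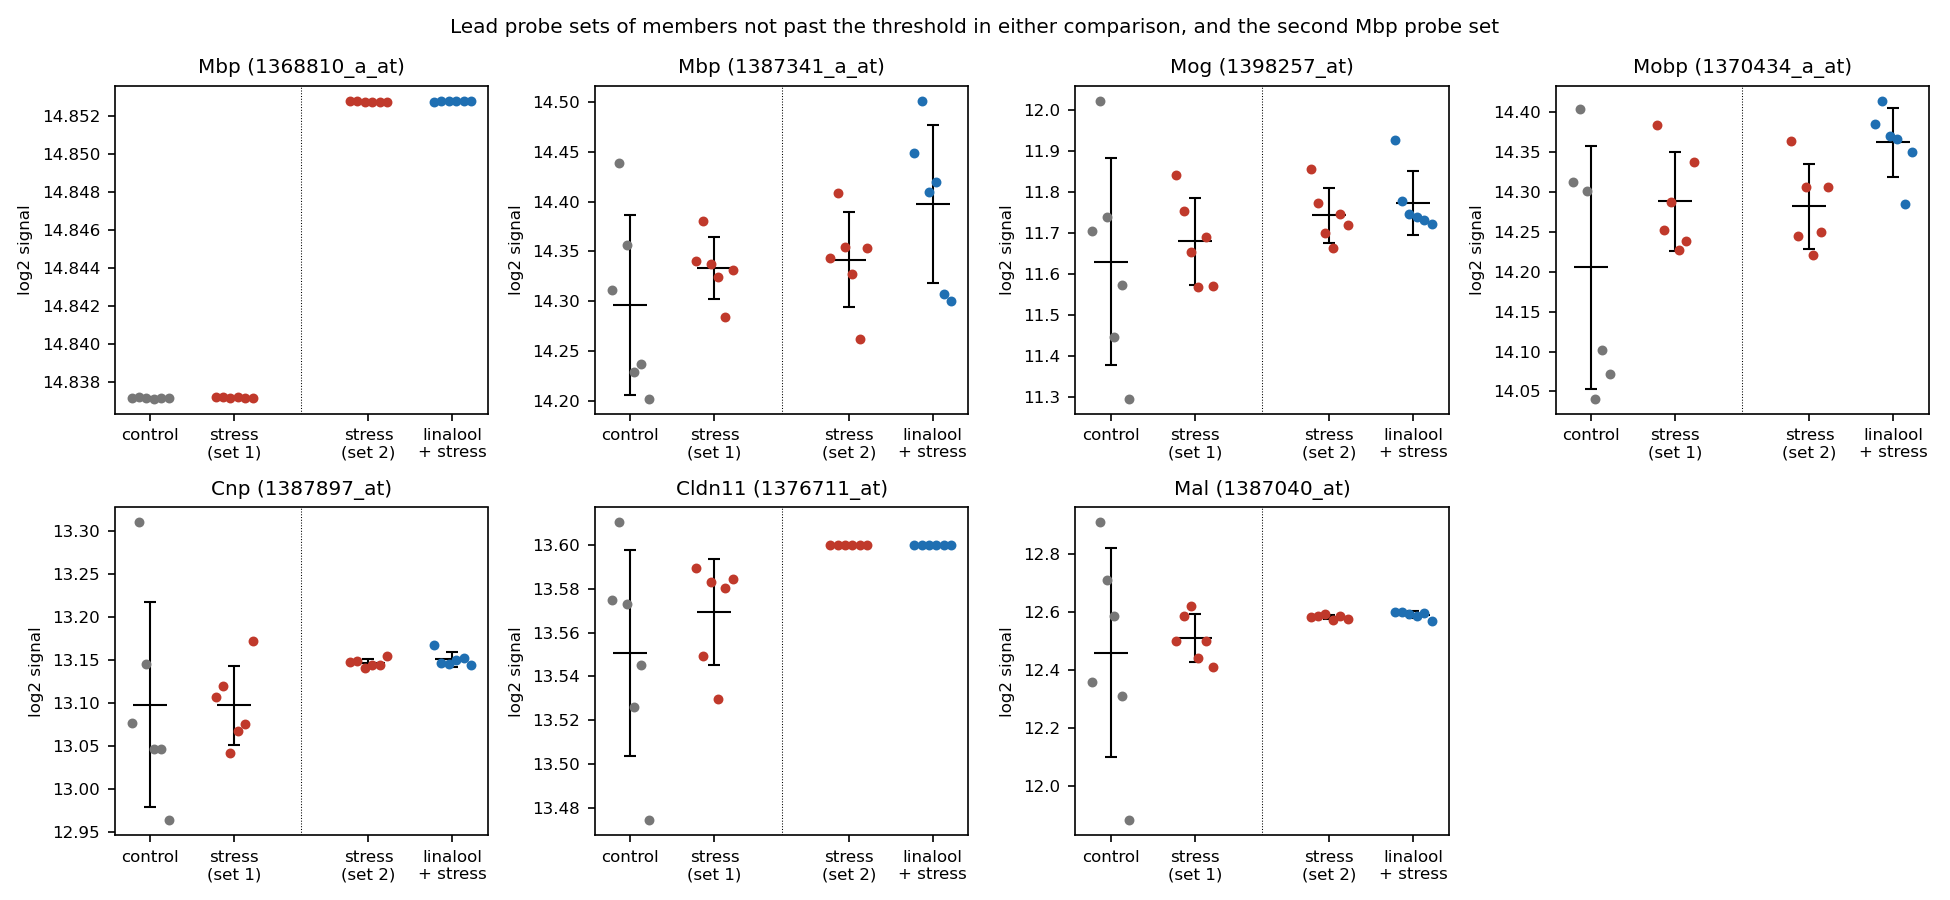
Log2 signal per rat with the group mean and SD for the 6 members' lead probe sets that passed in neither comparison and for Mbp 1387341_a_at, with set 1 left of the dotted line and set 2 right of it. The points of Cldn11, Cnp and Mal spread in set 1 and collapse in set 2, and those of the lead Mbp probe set are flat in both.

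Probe sets of the same gene did not always move alike under linalool. All 12 pairs of probe sets of the same member were compared rat by rat, as the gap between the log2 values of the pair, with an exact two-sided permutation test and Benjamini-Hochberg adjustment over the 12. In 3 pairs, each of 2 probe sets that were not compressed, the response differed. The gap between Mbp 1387341_a_at and 1383479_at was wider by 0.36 in linalool rats (exact p = 0.00433, adjusted 0.0130). Ermn 1382382_at moved up from 1395447_at by 0.25, and Mobp 1370434_a_at from 1370500_a_at by 0.09 (exact p = 0.00433, adjusted 0.0130 for both). The pairs with the compressed leads of Mbp, Cldn11 and Cnp cannot tell whether the response differed. A lead that hardly varies makes the gap a copy of the other probe set's own difference. Of these pairs, Mbp 1368810_a_at with 1383479_at (adjusted exact p = 0.0312) and the Cldn11 pair (adjusted exact p = 0.0130) also passed. Which transcript or which part of it each probe set reads was not analysed here. Mbp 1387341_a_at and Mobp 1370434_a_at averaged 14.34 and 14.28 in stress rats, and the highest value of set 2 was 14.93. Whether a limit at the top of the scale narrowed their changes was not tested. No pair passed between stress rats and controls (lowest adjusted p = 0.215).

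Both comparisons use the same 6 stress rats, so a high or low value there moves the members in opposite senses in each. Side by side, Tspan2 differed by -0.10 and -0.16 under restraint and by 0.20 and 0.14 under linalool, and Cldn11 1369609_at by 0.17 and 0.40. Mag differed by 0.06 and -0.24, and the lead Ermn probe set by 0.01 and 0.35.

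**Figure D5:**
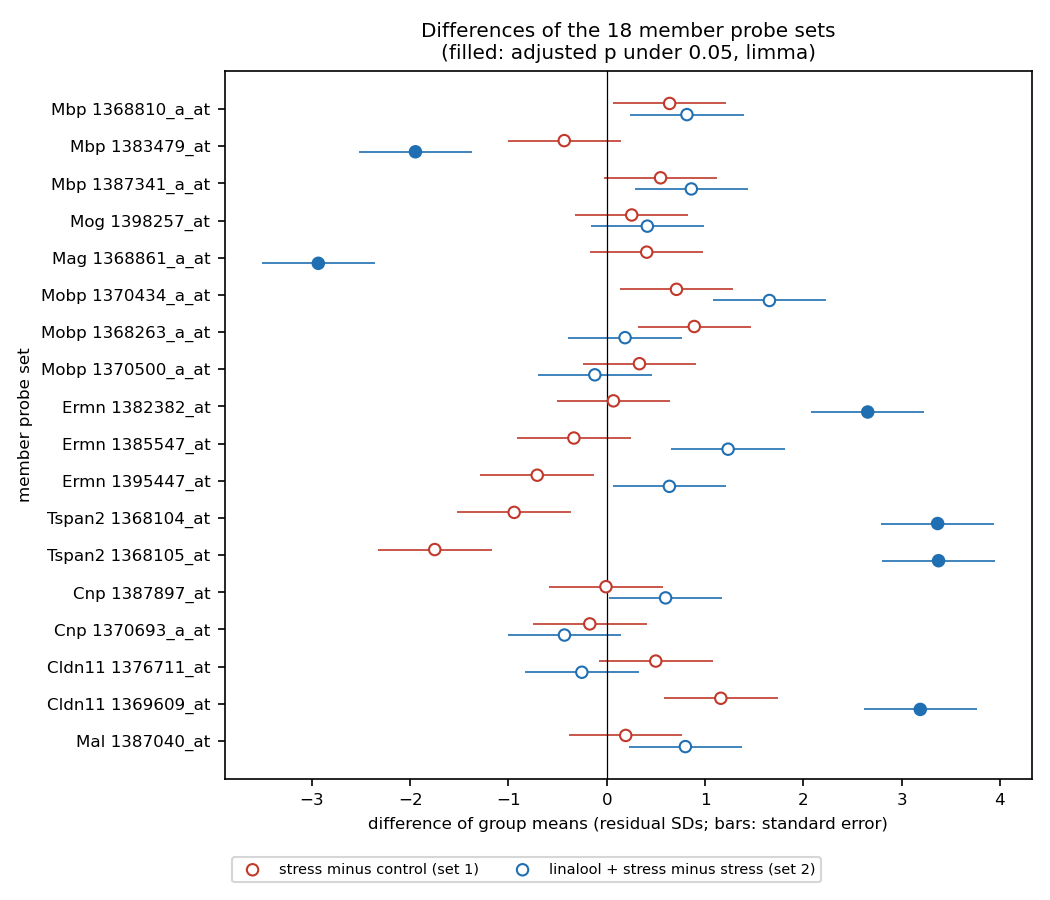
Difference of group means for each of the 18 member probe sets in within-group SDs, with its standard error, for stress minus control (red) and linalool plus stress minus stress (blue); filled points passed the limma threshold. No red point is filled, and the 6 filled blue points lie on both sides of 0.

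The 4 promoter stretches that follow include Tspan2, Cldn11 and Mag, which had calls under linalool that stayed in every alternative that tested them. For Cldn11 the call was that of probe set 1369609_at only, and its compressed lead did not pass. Mobp, which was chosen after its motif matches had been seen, is shown for contrast. Each of the 4 stretches runs 5′ to 3′ on the gene's strand and ends before the outermost annotated start. They come from RefSeq promoter windows of the rat assembly GRCr8, which held a window for 7 of the 9 members. Capitals mark ACAAAG or its reverse complement CTTTGT, the core motif of SOX factors such as Sox10, a master regulator of myelin genes. Tspan2 lies at chr2:192866030-192866211 on the plus strand, Cldn11 at chr2:114149540-114149789 on the minus strand, Mag at chr1:95291134-95291294 on the minus strand and Mobp at chr8:128746982-128747116 on the plus strand.
Tspan2: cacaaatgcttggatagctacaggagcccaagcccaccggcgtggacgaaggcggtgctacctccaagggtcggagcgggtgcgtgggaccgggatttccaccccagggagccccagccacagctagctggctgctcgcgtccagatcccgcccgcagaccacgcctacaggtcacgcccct
Cldn11: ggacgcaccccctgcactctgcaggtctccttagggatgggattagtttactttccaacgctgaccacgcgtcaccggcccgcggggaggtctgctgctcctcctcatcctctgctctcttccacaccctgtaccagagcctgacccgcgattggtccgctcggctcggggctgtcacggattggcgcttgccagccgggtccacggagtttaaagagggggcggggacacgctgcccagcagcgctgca
Mag: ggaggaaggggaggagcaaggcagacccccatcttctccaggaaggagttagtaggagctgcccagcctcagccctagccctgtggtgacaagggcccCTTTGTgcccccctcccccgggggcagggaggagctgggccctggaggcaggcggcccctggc
Mobp: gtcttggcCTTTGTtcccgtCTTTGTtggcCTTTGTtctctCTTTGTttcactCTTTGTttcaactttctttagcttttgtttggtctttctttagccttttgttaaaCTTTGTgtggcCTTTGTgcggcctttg

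Tspan2 and Cldn11 had no match in these letters, Mag had 1 and Mobp had 7. In the full windows of 300 bases, ACAAAG on either strand was found in 4 of the 7 members (Cnp, Mag, Mbp and Mobp) and in 18.8% of all 33469 windows. Mobp held 8 matches, and 3 windows, its own among them, held as many or more (0.00896%). The related core ACAATG was found in Mbp alone (13.2% of all windows), the E-box CAGCTG in Cnp and Mbp (15.1%), and CTGGCAC, the core motif of Myrf, in Cnp, Mag and Mal (4.75%). None of these matches overlapped one of another motif. The genes with a window and a rise under linalool, Tspan2 and Cldn11 (by 1369609_at only), held none of the 4 motifs. Mag, which fell, held 2 of them. Mbp, with 1 probe set called lower, held matches too, and so did Cnp, Mobp and Mal, which had no call. A relation between motifs and the direction of response was not tested. A match is a run of letters and was not tested as a binding site.

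The members varied together from rat to rat. With group means removed, the lead probe set of each member correlated with the mean of the other 8 at 0.742 (Mbp) to 0.987 (Mag) over the 12 arrays of set 1. In set 2 the range was -0.0897 (Mbp) to 0.903 (Mag). All 36 pairs of members had a positive r in set 1 (0.493 to 0.964, median 0.820), and 32 of 36 in set 2 (-0.380 to 0.892, median 0.445). Mog and Mag were the closest pair in both sets, although Mag passed and Mog did not under linalool. These are descriptions over arrays that share RNA, dissection and normalization, and the stress arrays are in both sets. In set 1, controls 2 and 6 held the ends of the members' mean deviation (1.85 and -1.76 within-group SDs). The correlations without these arrays, and those among genes in general, were not worked out.

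The 5 genes outside the members whose lead probe set followed the members' mean most closely, by the lower r of the 2 sets, were Septin8 (0.961 in set 1 and 0.905 in set 2), Elovl1 (0.948 and 0.901), Jam3 (0.900 and 0.942), Tmem229a (0.889 and 0.871) and Micall1 (0.931 and 0.861). Septin8 encodes a septin, Elovl1 an elongase of very long fatty acids and Jam3 a junctional adhesion molecule. Septin8 rose by 0.19 under linalool (SE 0.0605, limma adjusted p = 0.0468), and the other 4 did not pass in either comparison. The Septin8 call was lost with quantile normalization (0.0718), without moderation (0.0537), with the replicate number as a block (0.0576), and without any single array other than stress rat 1 or linalool rat 5 or 6 (0.0531 to 0.0942).

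Other genes of the lineage were read from lists by role, by the lead probe set of each gene. Under restraint, 0 of 18 genes for other myelin membrane and junction proteins passed, 0 of 8 for myelin lipid synthesis, 0 of 20 other mature oligodendrocyte genes and 0 of 9 precursor genes, against 0.598% of lead probe sets of all genes. At an unadjusted p under 0.05 there were 2, 1, 1 and 1. The smallest p belonged to Opalin (-0.21, limma adjusted p = 0.280) and Hapln2 (0.25, 0.310) among membrane proteins. Among precursor genes it belonged to Pdgfra, the growth factor receptor that marks them (-0.24, 0.271), and the proteoglycan gene Cspg4 (0.943 within-group SDs, 0.426). Among mature genes it belonged to Ndrg1 (0.17, 0.203) and Adamts4 (-0.15, 0.423). Aspa, which breaks down N-acetylaspartate in oligodendrocytes, had controls at 9.29 to 9.97 and stress rats at 9.98 to 10.55 with no overlap, a difference of 0.56 (SE 0.132, limma adjusted p = 0.102). With compressed probe sets left out before the adjustment, a choice made after seeing the data, Aspa passed (0.0311). The other lipid gene, Cers2, a ceramide synthase, differed by -0.406 within-group SDs (0.749).

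Of 8 transcription factors of the lineage, 1 fell under restraint, against 0.197% of lead probe sets of all genes, and 4 had an unadjusted p under 0.05. Nkx2-2, which acts in oligodendrocyte differentiation, had controls at 8.89 to 9.27 and stress rats at 8.52 to 8.71, a difference of -0.39 (SE 0.0667, limma adjusted p = 0.0376). The call was lost with quantile normalization (0.0623), with the replicate number as a block (0.141), with controls 4, 5 and 6 left out (0.111), and without any single array other than control 2, with adjusted p of 0.0506 to 0.0904.

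Under linalool, 4 of 18 membrane and junction genes rose and 2 fell, against 19.3% and 9.08% of lead probe sets of all genes. Cadm4, an adhesion molecule between axon and sheath, fell by 0.37 (SE 0.0478, limma adjusted p = 0.000596), with linalool rats at 8.62 to 8.79 and stress rats at 8.94 to 9.16. Pmp22, better known from peripheral myelin, rose by 0.12 (0.0145), the tetraspanin gene Cd9 by 0.22 (0.0152) and Evi2a by 0.19 (0.0179). Ninj2 rose by 0.30 (0.0395), and Pllp, which encodes plasmolipin, fell by 1.75 within-group SDs (0.0464). Pllp and Ninj2 did not pass with quantile normalization (0.191 and 0.0626), and Pllp turned upward under median centring. With each of the 12 arrays left out in turn, Pllp was lost in 10 fits (0.0584 to 0.0925) and Ninj2 in 8 (0.0596 to 0.0802). The median difference of the 18 was 0.644 within-group SDs, beside 0.223 over the leads of all genes.

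Of 8 lipid synthesis genes 0 passed with limma, and 1 had an unadjusted p under 0.05. The closest were Enpp6 (0.23, limma adjusted p = 0.0574) and Elovl1 (0.05, 0.290), and the median difference was 0.425 within-group SDs. Of 20 other mature genes 3 rose and none fell, again against 19.3% and 9.08% of all leads, and the median difference was 0.0816 within-group SDs. Qdpr, which recycles tetrahydrobiopterin, had stress rats at 11.31 to 11.49 and linalool rats at 11.76 to 11.87, a rise of 0.43 (SE 0.0297, limma adjusted p = 3.5e-05). The small heat-shock protein gene Cryab rose by 0.42 (0.00773) and Dbndd2 by 0.15 (0.0279), each with no overlap. Dbndd2 was lost with quantile normalization (0.0555) and without stress rat 3 (0.0554), 5 (0.0566) or 6 (0.0547) or linalool rat 2 (0.0517). With quantile normalization the 20 genes gave 2 higher and 5 lower instead, with Sirt2 and Bcas1 among the 5.

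Of the 8 transcription factors 1 fell under linalool, against 9.08% of all leads: Olig2, which sets up the lineage, fell by 0.36 (SE 0.0404, limma adjusted p = 0.000301), from 8.43 to 8.66 in stress rats to 8.08 to 8.22 in linalool rats. Of 9 precursor genes 3 fell: Tnr, which encodes tenascin-R, by 0.41 (SE 0.0867, limma adjusted p = 0.00731), C1ql1 by 2.35 within-group SDs (0.0139) and Pcdh15 by 1.83 (0.0387). C1ql1 and Pcdh15 are compressed, and both turned upward with quantile normalization and with median centring. Pcdh15 was also lost in 9 of the 12 fits with an array left out (0.0531 to 0.0806). The median difference was -0.894 within-group SDs over the precursor genes, beside 0.223 over the leads of all genes. Of the 9 precursor genes 7 are compressed. With median centring 7 rose and 1 fell past the threshold, and with quantile normalization 0 rose and 1 fell.

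Markers of other cell types were called under linalool at shares to be read against 19.3% higher and 9.08% lower over the leads of all genes. The mean deviation of 11 neuronal genes lay between 0.0783 and 0.829 within-group SDs in stress rats and between -1.12 and 0.384 in linalool rats, with 2 of 11 past the threshold and lower. Of 11 microglial genes 3 rose, of 9 endothelial genes 2 rose, of 10 astrocyte genes 1 rose and 1 fell, and of 5 thalamic genes 1 fell. The 5 thalamic genes averaged -1.14 to 1.77 in stress rats and -1.40 to 0.132 in linalool rats. Their median difference was -1.33 within-group SDs, beside 0.223 over the leads of all genes, and 3 had an unadjusted limma p under 0.05. The Schwann cell genes Prx (8.06 in both groups) and Pmp2 (6.95) were near or below the column medians and did not pass. Of 45 array controls for bacterial or phage RNA, 15 rose and 4 fell under linalool, and 0 rose and 1 fell under restraint. Of the other 12 array controls, for rat transcripts among others, 2 rose and 6 fell under linalool, and 0 rose and 0 fell under restraint. Hybridisation batches were not analysed here, so the odour and any batch shared by the linalool arrays cannot be told apart. The part of these values in the members' differences was not tested.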

How the data were processed

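Per the labels' protocols, total RNA of each hypothalamic block was made into biotin-labelled cRNA for a 3′ expression array. The deposited values are log2 signals per probe set, normalized by the authors in 2 sets of 12 columns, per the series' design text. The sources used here do not state the summarization method, and the log2 scale was read from the values. Of 31099 probe sets, 57 array controls were left out. Probe sets with 1 gene symbol numbered 20826, with several 436 and with none 9780. The 9 members and all gene lists were chosen with earlier results of these data known. Without filtering or renormalizing, the 12 arrays of a set entered a linear model of group (R 4.3.3, limma 3.58.1, moderated and two-sided). P-values of all 31042 probe sets were adjusted together by the Benjamini-Hochberg method, and 0.05 was the threshold. The scripts were tested on simulated data. Named list genes are up to 4 past the threshold by smallest p, or else the 2 with the smallest p, and Ninj2, Pllp, Sirt2 and Bcas1 were added after their values were seen. Of 157 list genes 144 were measured. The number of arrays, 6 per group, limits the precision. P-values set the difference of the groups against the spread within them, in which rats and the handling of their samples are not separated. Alternatives changed the normalization, moderation, features tested, replicate block and arrays left out.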

Additional observations from a re-analysis of the deposited data

Results flagged for a closer look

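Over the 18 member probe sets, 72 groups of 6 values were examined by Dixon's criterion at the 95% level, which chance meets in about 1 of 20 groups. Linalool rats made up 18 of these groups, 1 for each probe set. Only 3 groups met the criterion, all of them linalool groups, and the value that stood apart was each time that of linalool rat 1. Its Mog value was 11.93, with the next at 11.78 and the lowest at 11.72. Its value for the lead Ermn probe set was 12.14, with the next at 11.83 and the lowest at 11.66. Its value for the lead Cnp probe set was 13.17, with the next at 13.15. The same rat had the highest mean member deviation of set 2 (1.86 within-group SDs). Without it the difference of Mog was -0.000665, and the Ermn and Tspan2 calls remained past the threshold.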

How the results depend on the processing

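The 5 calls of Tspan2, Ermn, Cldn11 and Mag under linalool kept direction and threshold in every alternative that tested them. The count of member probe sets under restraint was 0 in all 20 alternatives. Under linalool it was 6, and 11 with median centring (9 higher, 2 lower), which adds 0.0076 log2 units to nearly every probe set, more than the spread of compressed ones. Leaving out each array in turn gave 5 to 7. Over all probe sets, the restraint count of 172 became 77 with quantile normalization, 92 with median centring, 101 with 1 probe set per gene and 1 without controls 4, 5 and 6, and 24 to 205 with each array left out. The linalool count of 7763 became 2608, 28990 (94.9% higher, beside 56.7% as deposited) and 4229 in the same order, 2864 with compressed probe sets left out, an alternative chosen after seeing the data, and 6383 to 7466 with each array left out. The replicate number as a block gave 16 probe sets under restraint and 5548 under linalool, with 0 and 5 member probe sets, Mbp 1383479_at being lost (adjusted p = 0.0679). With group means removed, same-numbered rats correlated at 0.0755 to 0.223 in set 1, with 4 above 0.1 and 3 of 6 best with their own number. In set 2 they correlated at -0.105 to 0.182, with 1 above 0.1 and 1 of 6 best with its own number. Whether the numbers stand for a shared order of handling was not tested. With the block Nkx2-2 was lost (0.141).

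Differences of members near 0 changed sign, none of them past the threshold under restraint, and the cause was not tested. Under restraint Cnp became 0.0182 with quantile normalization and 0.00895 with median centring. With each array left out in turn, Cnp ranged from -0.0275 (control 6 left out) to 0.0417 (control 2), Ermn from -0.048 (control 6) to 0.0879 (control 2), Mog from -0.0175 (control 6) to 0.128 (control 2) and Mal from -0.065 (control 6) to 0.140 (control 2). Controls 4, 5 and 6 were left out for their high meningeal markers in earlier results, and they are also the 3 with the lowest mean member deviation, so that values without them had to fall. They were -0.14 for Mog, -0.0803 for Mag, -0.0515 for Mobp, -0.17 for Ermn, -0.0167 for Cldn11 and -0.15 for Mal. Under linalool Cnp became -0.0039 with quantile normalization, Cldn11 0.00758 with median centring (past the threshold) and Mog ran from -0.000665 without linalool rat 1 to 0.0527 without stress rat 1. Signal over background was not analysed here, so weak and absent transcripts cannot be told apart at low values.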
